A study of Saccharomyces cerevisiae with 12 samples.

Results

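The 10 genes described here serve pyrimidine synthesis and uptake in the budding yeast Saccharomyces cerevisiae: URA2, URA4, URA1, URA5, URA10, URA3, FUR4, FUI1, FUR1 and PPR1. They were picked by their falls in the strain hac1∆(hsf1), so values that involve that strain are given for them as a description, with no test. Each of the 10 had 1 annotated probe set, out of 5449 S. cerevisiae genes read on the array. When hac1∆(hsf1) was set against hac1∆, all arrays were lower for 7 of the 10, as they were for 33.4% of all genes. URA10, FUR4 and PPR1 were not among the 7. The falls chose the genes, so this count is a description.

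RNA was measured on 12 Affymetrix arrays, 3 for each of 4 strains. The strains were hac1∆(hsf1), hac1∆, WT(hsf1) and WT. The labels call the arrays of a strain biological replicates. All 12 cultures grew at early exponential phase in synthetic medium without uracil and received 2.5 mM dithiothreitol (DTT) for 2 h, a reducing agent that disturbs protein folding in the endoplasmic reticulum. The hac1∆ strains lack HAC1, the transcription factor that drives the unfolded protein response. What (hsf1) stands for in the strain names, here called the (hsf1) change, on which DNA it is carried, whether it is the same in both strains, and which alleles of the URA genes the strains carry is not stated in the labels. No culture without DTT is analysed here. Each array measured RNA of a whole culture, so fewer cells expressing a gene and less of its RNA per cell cannot be told apart.

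Yeast makes pyrimidines by a short chain of enzymes that ends in uridine monophosphate (UMP), and it can also take up uracil, uridine and cytosine and convert them. Ppr1, a zinc cluster activator, is known to raise transcription of URA1, URA3, URA4 and URA10 when intermediates of the chain build up, whereas Ura2, the first enzyme, is under feedback by the end product UTP. URA3 is also a widely used selection marker, and cells grown without uracil must make their own UMP.

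All values are log2 signals as the authors deposited them, so a difference of 1 is a 2-fold change. The signal of a probe set is not comparable with that of another, so only differences within a gene are read. Signals from probe sets taken as those of another yeast on the same array put the background at 5.49, and all 10 genes lay above it on every array. HAC1 was at 5.21 to 5.31 on the hac1∆(hsf1) arrays and 5.23 to 5.24 on the hac1∆ arrays, below background, against 10.71 to 10.86 in WT(hsf1) and 10.37 to 10.80 in WT. HSF1, the heat shock transcription factor, was at 10.54 to 10.81 in hac1∆(hsf1), against 7.75 to 7.87 in hac1∆. In WT(hsf1) it was at 8.41 to 8.63, above WT replicates 1 and 3 and below WT replicate 2. WT replicate 2 stood apart from the other WT arrays, with HSF1 at 9.61 against 8.08 and 8.11, and it was the lowest WT array for 6 of the 10 genes (URA2, URA1, URA5, URA10, URA3 and FUI1). In HSF1, in these 6 genes and in FUR4 it deviated from the other WT arrays towards the level of hac1∆(hsf1). The cause was not tested. Calls and p-values include WT replicate 2 unless said otherwise. Changes of the 10 genes relative to WT that this array moved by over 0.08 are therefore also given without it. Ribosomal RNA control signals were lowest on hac1∆(hsf1) replicate 2, at 7.82 against 8.52 to 9.67 on the other arrays, and its values stand in the second place among the hac1∆(hsf1) values below. The number of arrays limits the precision.

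URA2 (YJL130C) encodes the enzyme with both carbamoyl phosphate synthetase and aspartate transcarbamylase activity that starts the chain. Its log2 signal was 8.45, 8.53 and 8.50 on the hac1∆(hsf1) arrays, 9.85, 9.92 and 9.93 on the hac1∆ arrays, 10.37, 10.44 and 10.33 on the WT(hsf1) arrays and 9.52, 9.07 and 9.44 on the WT arrays. The 4 strains did not overlap, with WT(hsf1) highest and hac1∆(hsf1) lowest. URA4 (YLR420W), dihydroorotase, kept the same order in a narrower span, at 8.25, 8.18 and 8.27 in hac1∆(hsf1), 9.09, 9.08 and 9.06 in hac1∆, 9.24, 9.24 and 9.27 in WT(hsf1) and 8.78, 8.75 and 8.74 in WT. Its arrays varied least of the 10 genes within a strain, with a pooled SD of 0.03.

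URA1 (YKL216W), dihydroorotate dehydrogenase, read 8.46, 8.50 and 8.60 in hac1∆(hsf1), 10.20, 10.20 and 10.27 in hac1∆, 10.34, 10.35 and 10.37 in WT(hsf1) and 9.996, 9.70 and 9.90 in WT. Again no strains overlapped, and the gap between hac1∆(hsf1) and the next strain, 1.35, was the widest in that order. Orotate phosphoribosyltransferase is encoded by 2 genes, URA5, which gives the main enzyme, and URA10, which gives a minor one. URA5 (YML106W) stood at 8.92, 8.85 and 8.95 in hac1∆(hsf1), 9.62, 9.56 and 9.59 in hac1∆, 10.05, 9.99 and 10.01 in WT(hsf1) and 9.17, 9.04 and 9.16 in WT. Its hac1∆(hsf1) and WT means lay 0.22 apart, the smallest such gap among the genes with this order, with no overlap of arrays.

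URA10 (YMR271C) ran another way. It was 10.24, 10.19 and 10.19 in hac1∆(hsf1), 9.01, 9.31 and 9.24 in hac1∆, 9.41, 9.54 and 9.70 in WT(hsf1) and 10.74, 10.68 and 10.75 in WT. It was thus highest in WT and lowest in hac1∆, with hac1∆(hsf1) between WT and the other strains and no overlap between strains. URA3 (YEL021W), orotidine monophosphate decarboxylase, which makes UMP, was 9.54, 9.69 and 9.58 in hac1∆(hsf1), 12.15, 12.18 and 12.06 in hac1∆, 10.89, 10.93 and 10.91 in WT(hsf1) and 11.88, 11.62 and 11.86 in WT. Its span over the strain means, 2.53, was the widest of the 10 genes, and it was the single one with hac1∆ highest and hac1∆(hsf1) lowest.

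FUI1 (YBL042C) encodes the uridine permease and FUR4 (YBR021W) the uracil permease. FUI1 followed URA2, at 6.50, 6.53 and 6.60 in hac1∆(hsf1), 7.80, 7.80 and 8.04 in hac1∆, 8.40, 8.42 and 8.42 in WT(hsf1) and 7.45, 7.21 and 7.63 in WT, with no strains overlapping. FUR4 did not, with 6.92, 7.03 and 7.16 in hac1∆(hsf1), 6.30, 6.28 and 6.41 in hac1∆, 6.87, 6.90 and 6.96 in WT(hsf1) and 6.09, 6.50 and 6.21 in WT. Both strains with the (hsf1) change lay above both strains without it, and within each of these pairs the arrays overlapped. FUR1 (YHR128W), uracil phosphoribosyltransferase, which turns uracil into UMP, was 6.65, 6.61 and 6.61 in hac1∆(hsf1), 7.35, 7.21 and 7.39 in hac1∆, 8.42, 8.44 and 8.49 in WT(hsf1) and 7.04, 7.04 and 7.23 in WT. WT(hsf1) was far above the rest, and hac1∆ and WT overlapped. The regulator PPR1 (YLR014C) was close to flat, at 6.64, 6.83 and 6.66 in hac1∆(hsf1), 6.51, 6.50 and 6.60 in hac1∆, 6.76, 6.86 and 6.80 in WT(hsf1) and 6.59, 6.62 and 6.70 in WT, with overlap between every pair of neighbours in its order and a span of 0.27 over strain means.

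**Figure D1:**
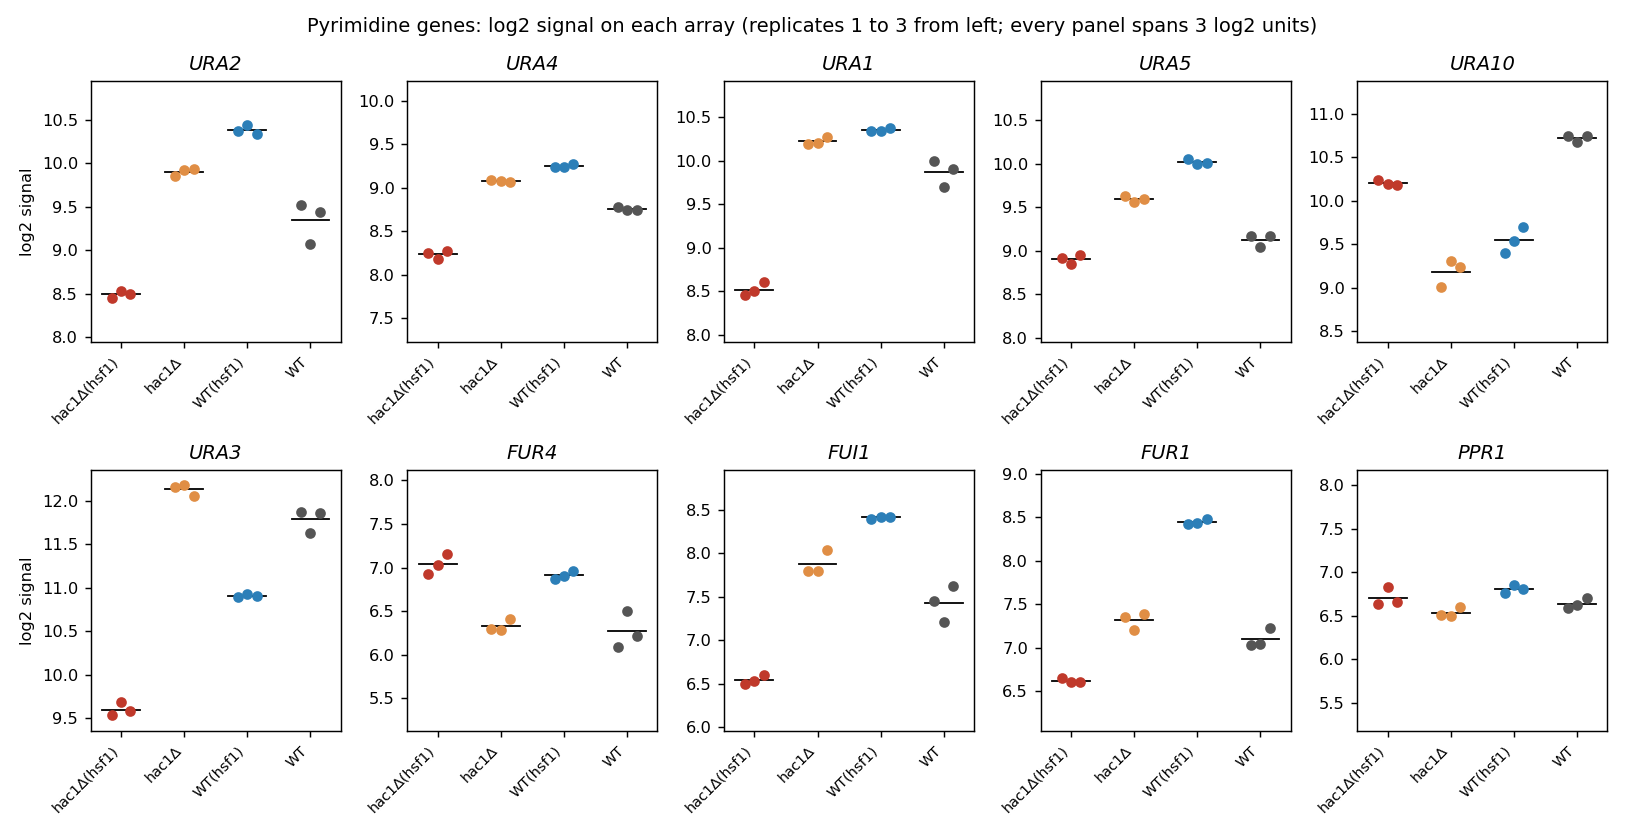
Log2 signal (vertical axis, each panel spanning the same number of log2 units) of the 10 genes on every array, by strain (horizontal axis), with a bar at the strain mean. The order WT(hsf1), hac1∆, WT, hac1∆(hsf1) from high to low is seen in 6 of the panels (URA2, URA4, URA1, URA5, FUI1 and FUR1), while URA10, URA3, FUR4 and PPR1 differ from it.

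The order of strain means from high to low, WT(hsf1), hac1∆, WT and hac1∆(hsf1), was shared by 6 of the 10 genes, URA2, URA4, URA1, URA5, FUI1 and FUR1, and by 14.0% of all genes. The last place is what the genes were chosen for. Without that strain, the order WT(hsf1), hac1∆, WT held for 7 of the 10, with FUR4 added, and for 21.7% of all genes. The other strains were the baselines of the falls, so this order is not free of the choice either.

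The comparison of hac1∆ with WT asks how loss of HAC1 changed these genes in DTT-treated cells. Its difference of means does not use the hac1∆(hsf1) arrays, but its SE and p-value do, through the spread pooled over all strains. The strains hac1∆ and WT were also the baselines against which the falls were seen. A choice by falls from hac1∆ can favour genes that are high in hac1∆, so this comparison is not independent of it. Most of the 10 genes rose modestly and URA10 fell. Of the 10 genes, 7 rose and 1 fell in limma (Benjamini-Hochberg adjusted p under 0.05 over all genes), where 28.4% of all genes rose and 22.3% fell. Their median change was 0.33, against 0.03 for all genes.

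Among the enzymes of the chain, URA2 rose by 0.56 ± 0.09 (log2 fold change ± SE, 3 arrays a strain, limma adjusted p = 0.000281), URA5 by 0.46 ± 0.05, URA1 by 0.35 ± 0.07, URA3 by 0.34 ± 0.07 and URA4 by 0.32 ± 0.04. The permease gene FUI1 rose by 0.45 ± 0.09 and FUR1 by 0.22 ± 0.06 (limma adjusted p = 0.0106). Without WT replicate 2 the increases of URA2, FUI1, URA1 and URA3 were 0.42, 0.34, 0.27 and 0.26. URA10 changed by −1.54 ± 0.08, a 2.90-fold fall (limma adjusted p = 5.17e-08), and stood 31st from the largest decrease among the 5449 genes. The isozyme genes URA5 and URA10 therefore went opposite ways in the same cells.

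FUR4 and PPR1 were not called in hac1∆ against WT. FUR4 differed by 0.06 (95% interval −0.14 to 0.26) and PPR1 by −0.10 (−0.23 to 0.02). FUR4 had its highest WT signal on replicate 2, and with that array left out it was called higher, at 0.18 (limma adjusted p = 0.0448). Without WT replicate 1 its difference was −0.03.

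WT(hsf1) against WT shows what came with the (hsf1) change in cells that have HAC1. All 10 genes were called, 8 higher and 2 lower, where 32.3% of all genes were higher and 33.8% lower. The median of the 10 was 0.57, against −0.01 for all genes. This comparison and the one above share the WT arrays. WT(hsf1) was also a baseline for the falls that chose the genes. The choice can favour genes that are high in it, so these counts are not independent of the choice.

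Salvage and transport genes were among the larger increases. FUR1 rose 2.54-fold (log2 fold change 1.35 ± 0.06 SE, limma adjusted p = 1.46e-09), FUI1 rose by 0.98 ± 0.09 and FUR4 by 0.64 ± 0.09. Of the enzymes of the chain, URA2 rose 2.05-fold (1.04 ± 0.09, limma adjusted p = 3.90e-07), URA5 by 0.89 ± 0.05, URA4 by 0.49 ± 0.04 and URA1 by 0.49 ± 0.07. URA10 and URA3 fell, URA10 with a change of −1.17 ± 0.08 and URA3 with one of −0.88 ± 0.07 (limma adjusted p = 1.23e-07). PPR1 rose by 0.17 ± 0.06 (limma adjusted p = 0.0205), a call that ended without WT replicate 1, at 0.14, or without WT(hsf1) replicate 2, also at 0.14. The known targets of Ppr1 thus divided in WT(hsf1), with URA1 and URA4 up and URA3 and URA10 down. Without WT replicate 2 the changes were 0.90 for URA2, 0.87 for FUI1, 0.40 for URA1, 0.76 for FUR4 and −0.96 for URA3.

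**Figure D2:**
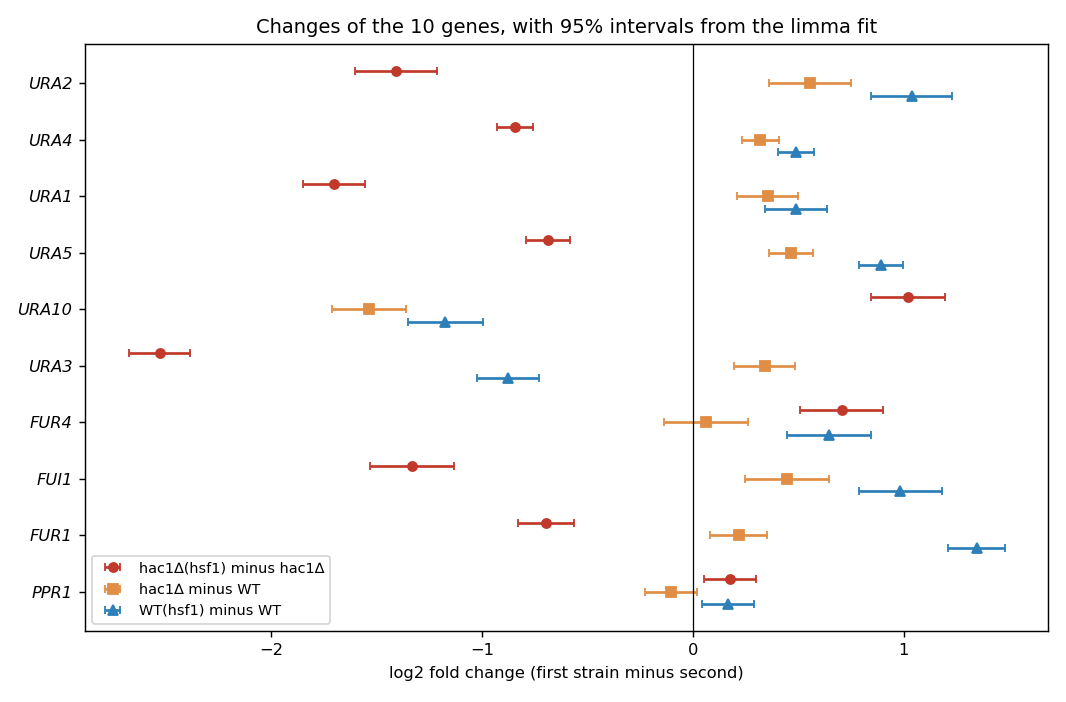
Log2 fold changes (horizontal axis) of the 10 genes in hac1∆(hsf1) minus hac1∆ (circles), hac1∆ minus WT (squares) and WT(hsf1) minus WT (triangles), with 95% intervals. The genes were chosen by falls in hac1∆(hsf1), so the intervals of the circles ignore that choice and are a description. URA2, URA4, URA1, URA5, FUI1 and FUR1 have squares and triangles right of 0 and circles left of it, and URA10 has the opposite arrangement.

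URA3 was set against the other enzyme genes of the chain because it can be carried as a marker. Each gene's log2 signal minus that of URA3 on the same array was fitted in limma across all genes. The same URA3 signal enters every difference, so these tests share its noise and are not independent. The moderation across genes takes no account of this, so the SEs and p-values may be too small. In hac1∆ against WT, URA1, URA4 and URA5 did not differ detectably from URA3 in their change, with differences of 0.01 ± 0.09, −0.02 ± 0.09 and 0.12 ± 0.09 (± SE). URA2 changed by 0.22 ± 0.08 more than URA3 (limma adjusted p = 0.0290), and the count of calls dropped to 1 without WT replicate 2, hac1∆ replicate 2 or hac1∆ replicate 3. URA10 changed by −1.88 ± 0.10 relative to URA3. So 2 of the 5 genes changed by another amount than URA3, where 68.3% of all genes did.

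In WT(hsf1) against WT all 5 genes changed by another amount than URA3, as did 95.1% of all genes. The limit of a shared URA3 signal holds here too. URA2 changed by 1.91 ± 0.08 relative to URA3 (limma adjusted p = 1.86e-14), URA5 by 1.77 ± 0.09, and URA1 and URA4 by 1.37 ± 0.09 each. These 4 genes rose while URA3 fell. URA10 fell further than URA3, by −0.30 ± 0.10 relative to it (limma adjusted p = 0.00923). Without WT(hsf1) replicate 1, 4 of the 5 were called.

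The array holds 3 more probe sets whose identifiers name URA3, for its 5′ part, its middle and its 3′ part, and all gave the pattern of the annotated one. On the 5′ probe set the strain means were 9.33 in hac1∆(hsf1), 11.84 in hac1∆, 10.90 in WT(hsf1) and 11.62 in WT. On the 3′ probe set they were 8.87, 11.47, 10.33 and 11.20 in the same strains. The hac1∆(hsf1) minus hac1∆ difference was −2.51, −2.75 and −2.60 on the 5′, middle and 3′ probe sets, against −2.53 on the annotated one. The WT(hsf1) minus WT difference was −0.72, −0.91 and −0.88, against −0.88. The log2 ratio of the 3′ to the 5′ probe set of URA3 averaged −0.46 ± 0.14 (SD, n = 3) in hac1∆(hsf1), −0.37 ± 0.07 in hac1∆, −0.57 ± 0.06 in WT(hsf1) and −0.42 ± 0.15 in WT. The same ratio for the actin gene ACT1, a measure of RNA integrity, was 0.59, 0.63, 0.61 and 0.65 in these strains. It differed between strains by less than its SD in hac1∆(hsf1), which was 0.14.

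**Figure D3:**
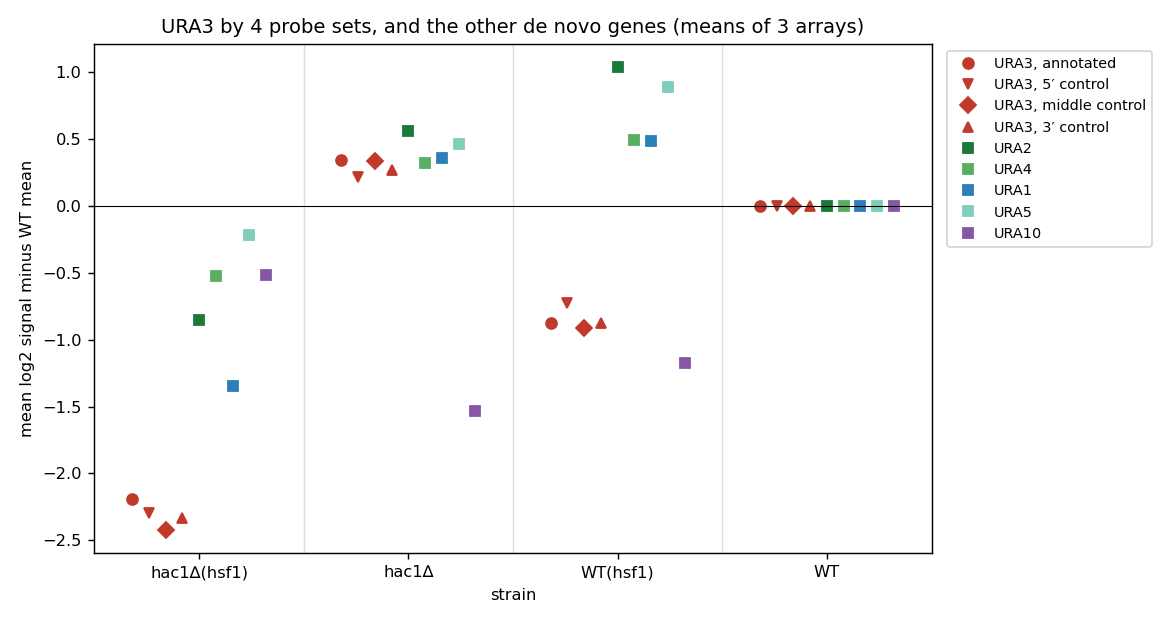
Mean log2 signal minus the WT mean (vertical axis) in each strain (horizontal axis) for URA3 on its 4 probe sets (red) and for the other enzyme genes of the chain (squares). In WT(hsf1) the URA3 probe sets lie between −0.72 and −0.91 while URA2, URA4, URA1 and URA5 lie between 0.49 and 1.04.

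The values that chose the genes are those of hac1∆(hsf1). Against hac1∆, the arrays of 7 genes were all lower and those of 3 all higher. Over all genes the arrays did not overlap, with hac1∆(hsf1) lower, for 33.4%, and with it higher for 29.3%. URA3 was lower by 2.53 ± 0.07 (SE), or 5.77-fold, the largest decrease of all 5449 genes in this comparison. URA1, lower by 1.70, URA2, lower by 1.41, and FUI1, lower by 1.33, stood at ranks 3, 5 and 7 from the largest decrease. URA4 differed by −0.84, FUR1 by −0.70 and URA5 by −0.69. URA10 was higher by 1.02, FUR4 by 0.71 and PPR1 by 0.17. The SE of these differences ranged from 0.04 for URA4 to 0.09 for FUR4, and the median of the 10 was −0.77, against −0.01 for all genes. URA1 was nearest to URA3 of the enzyme genes, and the difference between their changes was 0.83 ± 0.09.

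Against WT(hsf1), the arrays of 7 genes were all lower in hac1∆(hsf1) and those of 1, URA10, all higher. The share of all genes without overlap was 36.9% lower and 42.5% higher. URA2, FUI1, URA1 and FUR1 differed by −1.89, −1.87, −1.84 and −1.82, further than URA3, at −1.31. URA5 differed by −1.11, URA4 by −1.01 and URA10 by 0.66. FUR4 and PPR1 overlapped, at 0.12 and −0.10.

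Against WT, 8 genes had all arrays lower in hac1∆(hsf1) and FUR4 had all higher, where 28.3% of all genes were without overlap and lower and 29.5% higher. URA3 differed by −2.19 and URA1 by −1.35, and without WT replicate 2 by −2.27 and −1.43. Without that array URA2 differed by −0.99, FUI1 by −0.995 and FUR4 by 0.89. With all arrays FUI1, at −0.89, URA2, at −0.85, URA4, at −0.52, URA10, at −0.51, FUR1, at −0.48, and URA5, at −0.22, followed. FUR4 was higher by 0.77, and PPR1, at 0.07, overlapped. URA10 was the gene that lay lower in hac1∆(hsf1) than in WT yet higher than in hac1∆ and WT(hsf1).

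The difference that came with the (hsf1) change had opposite signs in hac1∆ cells and in WT cells, with no overlap of arrays in either, for 7 of the 10 genes, where 37.7% of all genes had this. Since the hac1∆(hsf1) values chose the genes, nothing is read from that count. Below 0 in hac1∆ cells and above 0 in WT cells were URA2, URA4, URA1, URA5, FUI1 and FUR1, a pattern of signs held by 32.9% of all genes. URA10 had the reverse, as had 33.7% of all genes. URA3 was below 0 in both, as were 18.3% of all genes. The difference between the 2 effects was −2.44 for URA2, −2.32 for FUI1, −2.19 for URA1, −2.04 for FUR1, −1.65 for URA3, −1.58 for URA5, −1.34 for URA4 and 2.19 for URA10. It was 0.06 for FUR4 and 0.01 for PPR1. Since the hac1∆(hsf1) arrays enter it, it was not tested for these genes. HSF1 itself averaged 10.67 in hac1∆(hsf1) against 7.83 in hac1∆. In WT(hsf1) it averaged 8.52, against 8.60 in WT and 8.09 in WT without replicate 2. The (hsf1) change may therefore be unequal in the 2 strains, and a dependence on HAC1 cannot be told apart from that.

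**Figure D4:**
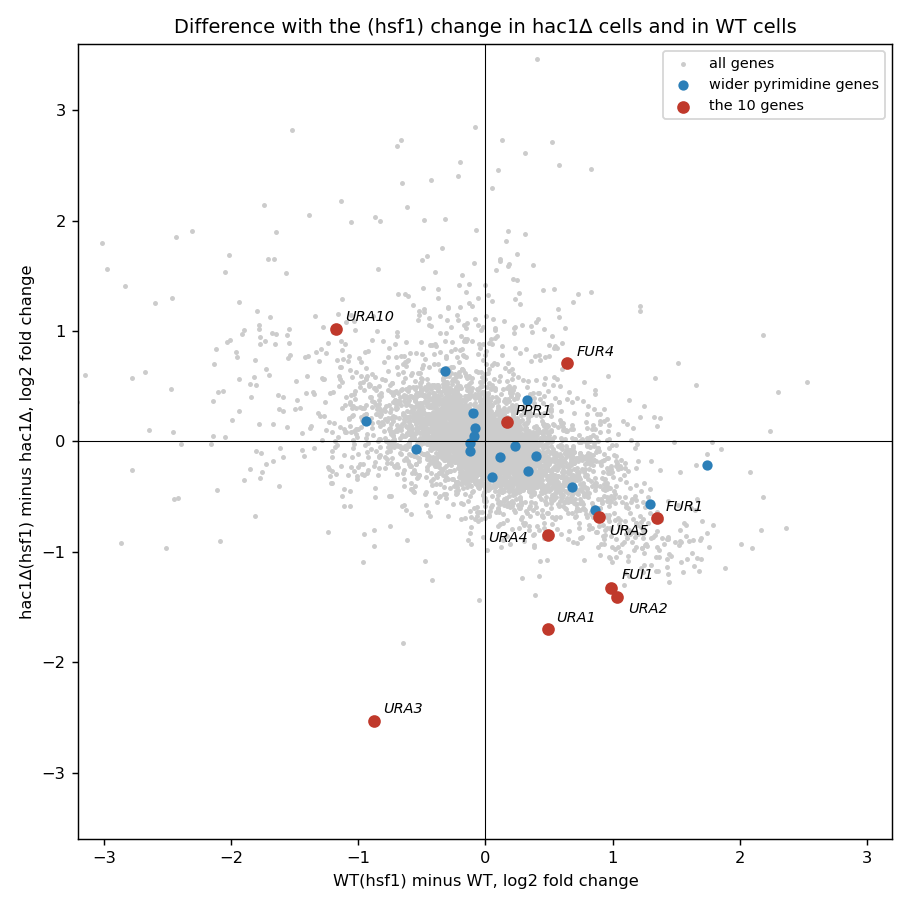
Log2 fold change of hac1∆(hsf1) minus hac1∆ (vertical axis) against that of WT(hsf1) minus WT (horizontal axis) for the 10 genes (red), the wider pyrimidine genes (blue) and all genes (grey, 3 of them outside the axes). URA3, at −0.88 and −2.53, has the lowest vertical position of all genes, and URA10 lies at −1.17 and 1.02.

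Other genes of pyrimidine metabolism were then counted, from a list drawn up by function with earlier results of these data known. The list holds 18 measured genes for the conversion of UMP to other nucleotides, for salvage and transport, and for the carbamoyl phosphate of arginine synthesis. In hac1∆(hsf1) against hac1∆, 6 of the 18 fell and 4 rose in limma, where 30.7% of all genes fell and 26.5% rose. The list's median change was −0.08, against −0.01 for all genes. DCD1, dCMP deaminase, changed by −0.63 ± 0.07 (limma adjusted p = 8.89e-06), URA7, the main CTP synthase, by −0.57 ± 0.08 and DUT1, dUTPase, by −0.41 ± 0.05. CPA1, a subunit of the arginine-specific carbamoyl phosphate synthetase, rose by 0.64 ± 0.07.

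In WT(hsf1) against WT, 8 of the 18 rose and 4 fell, where 32.3% of all genes rose and 33.8% fell. The list's median was 0.08, against −0.01 for all genes. FCY2, the purine-cytosine permease, was 9.04, 9.26 and 9.04 in WT(hsf1), against 7.40, 7.24 and 7.47 in WT, with no overlap. It rose by 1.74 ± 0.08 (limma adjusted p = 1.61e-09), more than any of the 10 genes above. URA7 rose by 1.30 ± 0.08 and DCD1 by 0.86 ± 0.07, while YNK1, nucleoside diphosphate kinase, changed by −0.94 ± 0.04.

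In hac1∆ against WT, 2 of the 18 rose and 6 fell, where 28.4% of all genes rose and 22.3% fell. The list's median was −0.09, against 0.03 for all genes. URH1, uridine nucleosidase, was 7.76, 7.69 and 7.69 in hac1∆, against 9.06, 8.81 and 8.90 in WT, with no overlap (−1.21 ± 0.06, limma adjusted p = 2.90e-08). FCY21, a relative of FCY2, changed by −0.59 ± 0.07, URA6, the UMP kinase, by −0.34 ± 0.06 and DCD1 by 0.41 ± 0.07.

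In hac1∆(hsf1) against WT(hsf1), 4 of the 18 rose and 10 fell (41.7% and 35.8% of all genes), with a median of −0.40 against 0.04 for all genes. FCY2 changed by −2.10 ± 0.08, URA7 by −1.95 ± 0.08, URH1 by −1.10 ± 0.06 and DCD1 by −1.08 ± 0.07. In hac1∆(hsf1) against WT, 3 rose and 9 fell (29.0% and 28.1% of all genes), and without WT replicate 2 the number that rose was 5. URH1 changed by −1.22 ± 0.06 and URA6 by −0.66 ± 0.06. The difference between the effects of the (hsf1) change in hac1∆ cells and in WT cells was called above 0 for 4 of the 18 genes and below 0 for 9 (35.7% and 34.0% of all genes). It was −1.96 ± 0.11 for FCY2, −1.87 ± 0.12 for URA7, −1.49 ± 0.10 for DCD1 and 1.13 ± 0.06 for YNK1 (limma adjusted p = 4.22e-09). The limit of a possibly unequal (hsf1) change holds here too.

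**Figure D5:**
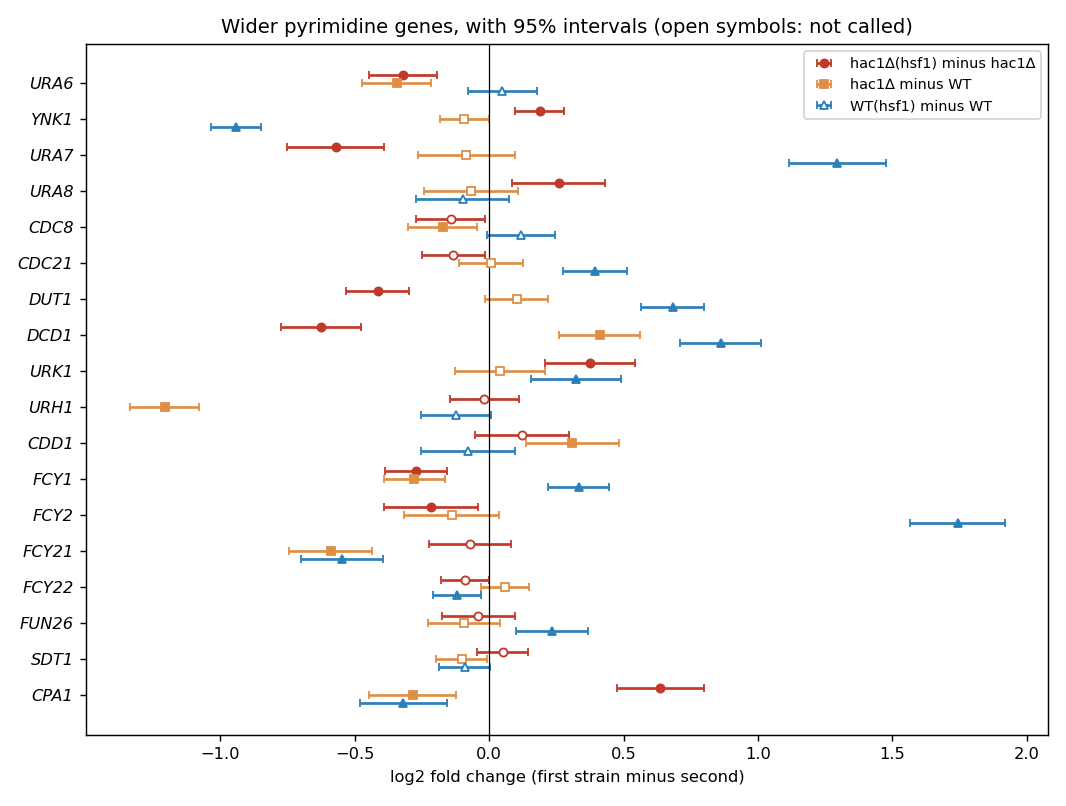
Log2 fold changes (horizontal axis) of the 18 measured wider pyrimidine genes in hac1∆(hsf1) minus hac1∆ (circles), hac1∆ minus WT (squares) and WT(hsf1) minus WT (triangles), with 95% intervals. FCY2 and URA7 have the largest increases in WT(hsf1), at 1.74 and 1.30, and URH1 the largest decrease in hac1∆, at −1.21.

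The genes whose strain pattern was most like that of URA3, URA1 and FUI1 were found by the root mean square difference over their log2 changes from WT in the other 3 strains, among 5235 genes above background. FUI1 was closest to URA2, at 0.07, before ELO2, a fatty acid elongase (0.08), RPL3 (0.10) and RPL23B (0.12), both ribosomal proteins, and RPB5, an RNA polymerase subunit (0.13). URA1 was closest to YHB1, the flavohemoglobin (0.20), GPP1, a glycerol phosphatase (0.29), BAR1, the protease that cleaves alpha-factor (0.30), HXT1, a glucose transporter (0.32), and RPL11A (0.33). FUI1 ranked 11th and URA2 22nd for URA1.

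URA3 had no gene as near. Its closest were MAL32, a maltase (0.48), MAL11, a maltose permease (0.74), RME1, a repressor of meiosis (0.80), CYB5, cytochrome b5 (0.84), and ARG4 of arginine synthesis (0.84). MAL32 has near-identical copies in yeast genomes, so its signal may hold those of other loci. URA1 ranked 15th for URA3, at 0.93, and was the nearest of the other 9 genes. This likeness is a distance between means and carries no test.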

How the data were processed

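Values were the authors' deposited log2 signals, 1 per probe set and array. PLIER is named as the tool, with no version, per the submitters' processing notes. How background was corrected, how arrays were normalized and what offset was added was not given in the sources used here. The log2 scale was read from the values (4.84 to 12.75, array medians 6.00 to 6.07). An offset or floor, if one was used, would compress fold changes of dim genes. Probe sets were named through the platform annotation and the RefSeq yeast table (R64), 5498 of 10928 for S. cerevisiae. For 47 genes with several, the highest mean was used. Background was the 95th percentile of 1746 probe sets annotated to genes of another species. Strain means over all 12 arrays were estimated for 5449 genes with limma 3.58.1 (R 4.3.3), with empirical Bayes moderation and Benjamini-Hochberg adjustment over all genes at 0.05. It was run on simulated data with independent noise and few shifted genes. In these data many genes were called and arrays can deviate together, so that run gives no error rate for them. The SE pools the spread of all strains. P-values measure the spread between the cultures labelled as biological replicates. Of the wider pyrimidine genes, the permease relatives and other marker genes, up to 4 called genes with the largest change are named per list and comparison. The members and lists were chosen with earlier results of these data known. Alternatives were quantile normalization, an intensity trend, array weights, a filter on dim genes, probe set means, the compared strains alone, the replicate number as a block, each array left out and, added after seeing the data, URA3 from its control probe sets and a paired fit of hac1∆(hsf1) and hac1∆ alone. The labels do not say that replicate numbers pair arrays, but same-numbered arrays of these strains deviated together (r = 0.15 to 0.50 in 3 pairs). Arrays of these strains with unlike numbers gave −0.46 to 0.16. Deviations from a mean of 3 arrays sum to 0, so the pairs are not independent and do not settle a pairing. No sequences were used here.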

Additional observations from a re-analysis of the deposited data

Results flagged for a closer look

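The difference that came with the (hsf1) change had opposite signs in hac1∆ cells and in WT cells, with no overlap of arrays in either, for 7 of the 10 genes, where 37.7% of all genes had this. The effect in hac1∆ cells minus that in WT cells was −2.44 for URA2, −1.34 for URA4, −2.19 for URA1, −1.58 for URA5, 2.19 for URA10, −2.32 for FUI1 and −2.04 for FUR1 on the log2 scale. This difference was not tested for them, since hac1∆(hsf1) chose them. The (hsf1) change may be unequal in the compared strains, so neither this difference nor that of the lists below shows a dependence on HAC1.

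In whole lists, the same difference was called by limma's interaction test for 13 of the 18 wider pyrimidine genes, 3 of the 4 permease relatives and 4 of the 4 other marker genes, where it was above 0 for 35.7% of all genes and below 0 for 34.0%. The genes named here were chosen for large changes, in this difference among others, so that they passed is no result of its own. In the wider pyrimidine list it was −0.37 for URA6, 1.13 for YNK1, −1.87 for URA7, −1.10 for DUT1, −1.49 for DCD1, −1.96 for FCY2, 0.48 for FCY21 and 0.96 for CPA1. URA8, CDC8, CDC21, FCY1 and FUN26 were also called, between −0.60 and 0.36, and URH1 was not, at 0.11. Among permease relatives it was −0.71 for THI7, 0.82 for THI72 and 0.47 for NRT1, and DAL4 was not called, at −0.09. Without WT replicate 2 DAL4 was called, at −0.22 (limma adjusted p = 0.0254). Among other marker genes it was −0.57 for HIS3, 1.09 for LEU2, 1.37 for LYS2 and −1.63 for ADE2.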

How the results depend on the processing

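The 10 genes kept their counts of calls within 1.5 times under each alternative run. Leaving out each array in turn gave 7 to 8 higher and 1 lower in hac1∆ against WT, and 7 to 8 higher and 2 lower in WT(hsf1) against WT. Of all 5449 genes, 1313 to 1627 were then higher and 1051 to 1264 lower in hac1∆ against WT. In WT(hsf1) against WT, 1590 to 1798 were higher and 1664 to 1888 lower. In hac1∆ against WT, the genes that changed by another amount than URA3 numbered 2, and 1 with quantile normalization, with the replicate block, with the compared strains alone and with URA3 from its control probe sets, and 1 to 2 with an array left out. The wider genes that rose in hac1∆(hsf1) against WT numbered 3, 5 with quantile normalization and 3 to 5 with an array left out. Of all genes, 1581 rose, 1644 with quantile normalization and 1359 to 1673 with an array left out. The wider genes called above 0 for the difference between the effects of the (hsf1) change numbered 4, and 7 with array weights. Of all genes, 1945 were called above 0, and 2060 with array weights. In hac1∆ against WT, FUR4 turned to −0.0258 without WT replicate 1, ranged up to 0.18 (called, without WT replicate 2) with other arrays left out, and was called with array weights, at 0.16. The difference between the effects turned for FUR4, at 0.06, to −0.057 without WT replicate 2, in a range up to 0.15. For PPR1, at 0.01, it turned on leaving out WT replicate 3 (−0.02), WT(hsf1) replicate 1 (−0.02), hac1∆ replicate 1 (−0.01) or 2 (−0.01), or hac1∆(hsf1) replicate 2 (−0.0504), in a range up to 0.042. Same-numbered arrays correlated at −0.25 to 0.50 in their deviations from strain means, over 0.1 in 8 of 18 pairs, and in every pair only for hac1∆(hsf1) with hac1∆. Elsewhere the numbers were not taken to pair arrays. For hac1∆(hsf1) against hac1∆, these strains alone with the block gave 4 wider genes higher and 8 lower, against 4 and 6. The share of all genes was not counted for that fit, so nothing is read from its counts. Apart from the count against URA3 in hac1∆ against WT, given above, the block changed no count of calls by over 1.5 times. The cause of these changes was not tested. The deposited normalization is unknown, signals are relative within an array, and 3 arrays a strain limit the precision.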

Other observations

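FUR4 and FUI1 have relatives in the same family of permeases, and these moved differently. DAL4, the allantoin permease, rose by 0.75 ± 0.09 in hac1∆ against WT (limma adjusted p = 2.86e-05). THI7, the thiamine permease, changed by −0.62 ± 0.08 in hac1∆(hsf1) against hac1∆ (limma adjusted p = 4.00e-05), where THI72 rose by 0.49 ± 0.04 and NRT1, a nicotinamide riboside transporter, by 0.45 ± 0.06. In WT(hsf1) against WT, 1 of the 4 was called, THI72, at −0.33 ± 0.04, where 32.3% of all genes rose and 33.8% fell.

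Of 6 other genes in common use as markers, 4 were measured, and TRP1 and MET15 were not analysed here. LEU2, of leucine synthesis, was 9.60, 9.70 and 9.59 in hac1∆(hsf1), against 8.70, 8.72 and 8.69 in hac1∆, with no overlap, and rose by 0.93 ± 0.13 (limma adjusted p = 4.50e-05). WT replicate 2, at 9.04, lay above the other WT arrays, at 8.40 and 8.47, for this gene. ADE2, of purine synthesis, rose by 1.25 ± 0.07 in WT(hsf1) against WT, HIS3, of histidine synthesis, rose by 0.25 ± 0.05, and LYS2, of lysine synthesis, changed by −0.69 ± 0.06, while LEU2 was not called. In hac1∆(hsf1) against hac1∆, LYS2 rose by 0.68 ± 0.06, ADE2 changed by −0.38 ± 0.07 and HIS3 by −0.33 ± 0.05.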
